A study of Mus musculus with 16 samples.

Results

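The clones of antigen-experienced CD4+ T cells were compared between Eomes knockout (KO) and wild-type (WT) mice that carried a myeloma and were treated with an agonistic antibody against 4-1BB (also named CD137). Members were the cells of 4 T cell receptor (TCR) libraries, 1 WT and 1 KO library from each of 2 experiments, that had exactly 1 TCR β chain (TRB) and 1 or 2 TCR α chains (TRA). They numbered 20873 of the 38108 cells that met this chain rule in all 8 TCR libraries of the study, and the other 17235 came from the matching libraries of mice given control immunoglobulin (Ig). Every group, controls included, received an antibody that depletes NK1.1+ cells (50 µg, days -2 and 5), a graft of Vk12653 cells of the Vk*Myc myeloma model at day 0, and anti-4-1BB or control Ig (20 µg, days 10, 13 and 16). CD44high CD4+ T cells were sorted from the spleen at day 18.

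The WT genotype was labelled Eomes-IRES-GFP, a reporter allele, in both experiments. The KO of experiment 1 was labelled Eomesfl/fl-CD4Cre, in which the CD4 promoter drives Cre through T cell development, and the KO of experiment 2 Eomesfl/fl-ERT2CD4Cre, with tamoxifen injected in every group of that experiment, WT included. Type of knockout and experiment therefore cannot be told apart, and per the labels the WT mice carried the reporter and not the floxed allele. Ages, the number of mice behind a library and any pooling are not given in the labels used here. The spread between the 2 libraries of a group may thus be partly technical.

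Eomes (Eomesodermin) is a T-box transcription factor best known for its part in effector and memory differentiation of cytotoxic lymphocytes, and 4-1BB is a costimulatory receptor that appears on T cells after activation. Each T cell clone carries a β and an α chain assembled from V, (D) and J segments. The junction of these segments, the CDR3 (a complementarity-determining region), reaches over the antigenic peptide. Cells with the same base sequence in both CDR3s and the same segments, here a clonotype, are taken to descend from 1 cell, so clonotype size is a readout of division. Different clonotypes that use the same segments and nearly the same CDR3 residues have nearly the same receptor. Where their β bases differ, they come from independent β rearrangements. Others share their β bases and differ in the α chain alone. A count of clonotypes is therefore not a count of β rearrangements.

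Kept cells numbered 8871 in WT and 2656 in KO in experiment 1, and 4439 in WT and 4907 in KO in experiment 2, out of 4637 to 14657 barcodes per library. The median kept cell had 14 to 18 unique molecular identifiers (UMIs) for its TRB and 8 to 10 for its main TRA. The WT library of experiment 1 stood apart in size and in barcodes with more than 1 TRB, which can hold more than 1 cell: 9.33% of its barcodes, against 3.15% to 4.83% in the other 3. Cells with 2 TRA chains were also most frequent there, 8.98% against 3.83% to 6.70%. Barcodes shared by 2 of the 4 libraries numbered 63 to 223 per pair of libraries, and of the 229 instances in which such a barcode was a kept cell in both libraries, 0 had the same β chain. The receptor of invariant natural killer T cells (TRAV11 with TRAJ18) was found in 7 to 13 cells per library and that of mucosal-associated invariant T cells (TRAV1 with TRAJ33) in 0 to 2. Contigs of other chains (γ, δ or immunoglobulin) numbered 0, and neither CD4 and CD44 nor the loss of Eomes can be read from TCR contigs. The gene expression libraries were not analysed here.

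Receptors that recurred as many clonotypes are shown first. In the KO library of experiment 2, 3 of the 4 largest clones used TRBV1 (Vβ2) with TRBJ2-4 and the TRAV13-1 subgroup with TRAJ30, and held 68, 50 and 49 cells. The 3 largest WT clones of that receptor in the same experiment held 23, 16 and 16 cells. Their CDR3β bases follow, 5′ to 3′, with capitals at the positions where the 6 sequences differ.
KO experiment 2, clone of 68 cells, CDR3β: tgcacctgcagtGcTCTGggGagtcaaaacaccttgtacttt
KO experiment 2, clone of 50 cells, CDR3β: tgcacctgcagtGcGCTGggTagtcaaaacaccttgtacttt
KO experiment 2, clone of 49 cells, CDR3β: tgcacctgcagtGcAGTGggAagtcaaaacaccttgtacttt
WT experiment 2, clone of 23 cells, CDR3β: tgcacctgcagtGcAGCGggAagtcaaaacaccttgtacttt
WT experiment 2, clone of 16 cells, CDR3β: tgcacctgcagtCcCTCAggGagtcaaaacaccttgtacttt
WT experiment 2, clone of 16 cells, CDR3β: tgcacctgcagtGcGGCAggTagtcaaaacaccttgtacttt
Only 6 of 42 bases differed among these 6 β chains. The KO clones of 68 and 50 cells encoded the same residues with 2 different bases, and so did the WT clones of 23 and the second of 16 cells, with 3 different bases. All 6 therefore were separate rearrangements, and 2 residue sequences were each reached by more than 1 of them. The CDR3α bases of the same clones, in the same order and with capitals where they differ, were as follows.
KO experiment 2, clone of 68 cells, CDR3α: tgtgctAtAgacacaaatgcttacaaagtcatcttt
KO experiment 2, clone of 50 cells, CDR3α: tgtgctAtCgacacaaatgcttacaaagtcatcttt
KO experiment 2, clone of 49 cells, CDR3α: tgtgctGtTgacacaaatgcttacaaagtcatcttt
WT experiment 2, clone of 23 cells, CDR3α: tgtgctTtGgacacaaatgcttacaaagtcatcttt
WT experiment 2, clone of 16 cells, CDR3α: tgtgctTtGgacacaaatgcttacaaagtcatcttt
WT experiment 2, clone of 16 cells, CDR3α: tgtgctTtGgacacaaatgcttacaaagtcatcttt
The α chains differed at 2 of 36 bases. The 3 WT clones had identical CDR3α bases (0 differences) with 3 different β chains, while the 3 KO clones had 3 different CDR3α sequences.

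Over all its clonotypes, with CDR3s of 14 (β) and 12 (α) residues, this receptor made up 319 cells in 49 clonotypes of the KO library of experiment 2. That was 6.50% of the kept cells (95% exact binomial interval 5.83% to 7.23%, which like every interval here covers counting error only and treats clone mates as independent cells). In WT of experiment 2 it made up 142 cells in 24 clonotypes, or 3.20% (2.70% to 3.76%). Experiment 1 had 4 cells in 4 clonotypes in KO (0.151%, 0.0410% to 0.385%) and 8 cells in 8 clonotypes in WT (0.0902%, 0.0389% to 0.178%). KO was 3.30 percentage points above WT in experiment 2 and 0.0604 points above it in experiment 1. The mean difference, 1.68 ± 2.29 points (SD, n = 2 experiments), was smaller than its spread. In the control Ig libraries of experiment 2 the same receptor was in 0.224% of WT and 0.334% of KO cells, and in those of experiment 1 in 0.123% and 0.0733%. The receptor was singled out after these values were seen, so they are a description without a test.

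Within the receptor, the largest clones were not alone. In KO of experiment 2, 6 clones of 10 or more cells held 199 of its 319 cells, and 20 of its 49 clonotypes had 1 cell. In WT of experiment 2, 7 clones of 10 or more held 97 of 142 cells, and 8 of 24 clonotypes had 1 cell. The 49 KO clonotypes used 39 distinct β base sequences that encoded 14 distinct residue sequences, and the 24 WT clonotypes 21 base sequences for 11 residue sequences. Residue 7 of the CDR3β, counted from the first cysteine, was glycine in 48 of 49 KO and 23 of 24 WT clonotypes. The last 9 residues of the CDR3α were the same in 45 of 49 and in 24 of 24. By TRAV label, TRAV13N-1 held 62.1% of the receptor's cells in KO against 10.6% in WT of experiment 2, and TRAV13-1 held 32.9% against 88.0%. The 3 printed KO clones, all TRAV13N-1, made up most of that share, and by clonotype TRAV13N-1 was in 14 of 49 in KO and 4 of 24 in WT. TRAV13-1, TRAV13D-1 and TRAV13N-1 are near-identical copies, and a label among them is uncertain.

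**Figure D1:**
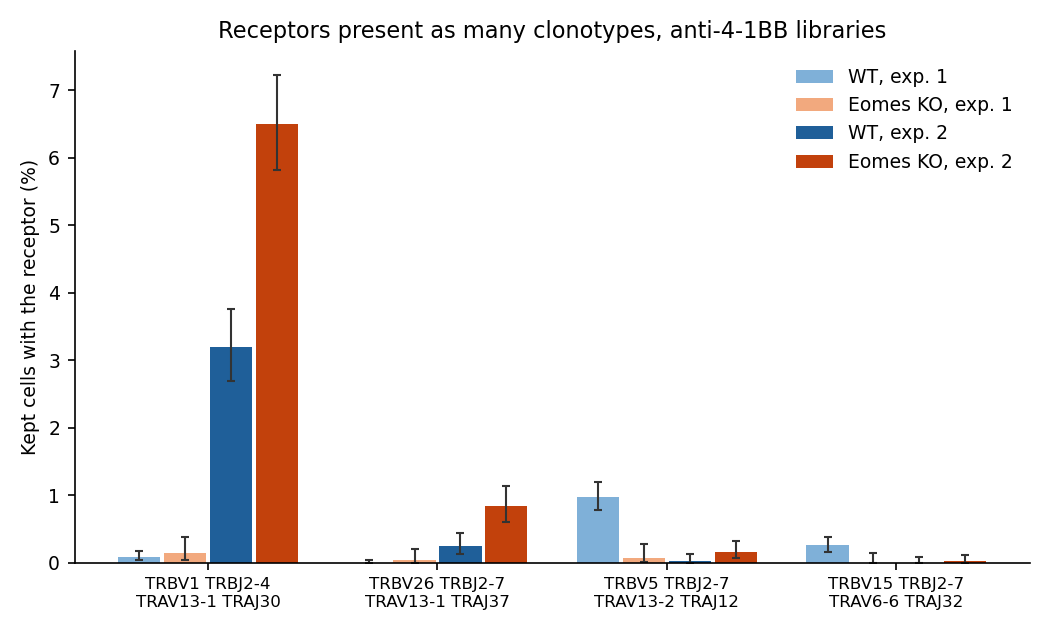
Percent of kept cells (y axis) that carried each of 4 receptors in the 4 anti-4-1BB libraries; a receptor is 1 combination of TRBV, TRBJ, TRAV and TRAJ with fixed CDR3 lengths, and error bars are 95% exact binomial intervals. The TRBV1 receptor stands at 6.50% in KO and 3.20% in WT of experiment 2 and near the axis in experiment 1, and the TRBV5 receptor is highest in WT of experiment 1.

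Receptors of this kind, defined as 1 combination of segments (D and N copies of a TRAV counted together) and both CDR3 lengths that held at least 5 clonotypes in any of the 4 libraries, numbered 9. Together they held 7.54% of KO and 3.51% of WT cells in experiment 2, and 0.602% of KO and 1.81% of WT cells in experiment 1. Because a larger library shows more clonotypes of any receptor, the rule favours the WT library of experiment 1, which alone reached 5 clonotypes for 5 of the 9.
The next largest after the TRBV1 receptor joined TRBV5 (Vβ1) and TRBJ2-7 to the TRAV13-2 subgroup and TRAJ12. It held 86 cells in 36 clonotypes in WT of experiment 1 (0.969%, 0.776% to 1.20%), against 2 cells in KO of experiment 1 (0.0753%, 0.00912% to 0.272%). In experiment 2 it was in 8 KO cells and in 1 WT cell, and in 0 cells of the 4 control Ig libraries. A count of 0 allows a share of up to 0.110% in the smallest of these, taken here and below as 3 counts of the total, not as a two-sided interval. In WT of experiment 1 its 36 clonotypes used 20 distinct β base sequences. Thinned to 2656 cells, WT of experiment 1 was expected to hold 17.1 clonotypes of it and KO held 2. Its 3 largest WT clones are shown with capitals where the CDR3β differ.
WT experiment 1, clone of 15 cells, CDR3β: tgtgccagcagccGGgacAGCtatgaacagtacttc
WT experiment 1, clone of 7 cells, CDR3β: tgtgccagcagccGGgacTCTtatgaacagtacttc
WT experiment 1, clone of 6 cells, CDR3β: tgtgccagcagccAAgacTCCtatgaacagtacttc
The clones of 15 and 7 cells encoded the same β residues with 3 different bases and had identical CDR3α bases (0 differences).

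The remaining 6 receptors were small. TRBV15 (Vβ12) with TRBJ2-7, TRAV6-6 and TRAJ32 held 23 cells in 8 clonotypes of WT of experiment 1, 1 cell in KO of experiment 2 and 0 in the other 2 libraries. TRBV13-3 (Vβ8) with TRBJ1-3, TRAV6-7 and TRAJ16 held 16 WT and 2 KO cells of experiment 1 and 0 in experiment 2. TRBV5 with TRBJ2-5, TRAV7-6 and TRAJ22 held 5 clonotypes in each genotype of experiment 1, with 7 WT and 5 KO cells. The other 3 held 5 to 9 cells in WT of experiment 1 and at most 2 in any other library. All 6 were at 0 cells with control Ig.

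Next came TRBV26 (Vβ3) and TRBJ2-7 with TRAV13-1 and TRAJ37, which was higher in KO of experiment 2. There it held 41 cells in 15 clonotypes (0.836%, 0.60% to 1.13%), against 11 cells in 7 WT clonotypes (0.248%, 0.124% to 0.443%). The 15 KO clonotypes used 9 distinct β base sequences and the 7 WT clonotypes 6. KO of experiment 1 had 1 cell and WT of experiment 1 had 0 of 8871, which allows up to 0.0338%. It was also seen with control Ig, in 11 WT and 6 KO cells of experiment 2. The 2 largest KO clones, of 10 cells each, carried many of the KO cells, and the difference rests on 1 library of each genotype, without a test. The CDR3β of the 2 largest clones of each genotype are given with capitals where they differ.
KO experiment 2, clone of 10 cells, CDR3β: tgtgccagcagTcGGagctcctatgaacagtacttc
KO experiment 2, clone of 10 cells, CDR3β: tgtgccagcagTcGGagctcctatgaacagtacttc
WT experiment 2, clone of 3 cells, CDR3β: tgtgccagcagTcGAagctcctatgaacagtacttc
WT experiment 2, clone of 2 cells, CDR3β: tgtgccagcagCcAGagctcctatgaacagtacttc
Their CDR3α were as follows.
KO experiment 2, clone of 10 cells, CDR3α: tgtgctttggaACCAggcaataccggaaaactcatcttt
KO experiment 2, clone of 10 cells, CDR3α: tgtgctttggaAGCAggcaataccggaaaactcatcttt
WT experiment 2, clone of 3 cells, CDR3α: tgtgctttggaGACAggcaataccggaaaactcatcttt
WT experiment 2, clone of 2 cells, CDR3α: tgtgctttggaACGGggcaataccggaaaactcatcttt
The KO clones had the same β bases (0 differences) and α chains that differed at 1 base. The first WT clone encoded the same β residues with 1 different base.

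Clone sizes are described after each library was thinned to 2656 cells, the number in the smallest, by the exact expected value of drawing cells without replacement, because the chance of seeing a second cell of a clone grows with the cells read. After thinning, KO cells were in expanded clones (2 or more cells) more often than WT cells in experiment 1 and less often in experiment 2. Expanded clones held 11.8% of WT and 16.5% of KO cells in experiment 1, against 41.4% and 31.0% in experiment 2. KO minus WT was 4.70 points in experiment 1 and -10.4 in experiment 2, a mean of -2.86 ± 10.7 points (SD, n = 2 experiments). The experiments thus went opposite ways, and the mean was smaller than their spread. With control Ig the same differences were 3.21 and -0.209 points. Exchanging genotype labels inside the experiments gives 4 arrangements and an exact permutation p no lower than 0.5, so that test cannot call a difference, and no other test was run on the clone sizes.

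The middle-sized clones, of 3 to 9 cells, held 4.78% of WT and 6.85% of KO cells in experiment 1. In experiment 2 they held 17.5% of WT and 14.2% of KO cells. The expected number of middle-sized clones was 33.9 in WT and 51 in KO of experiment 1, and 107.8 and 89.8 in experiment 2. The differences in their share, 2.08 and -3.28 points, had opposite signs (mean -0.60 ± 3.78, SD, n = 2 experiments). Pairs of cells spanned the narrowest range of these classes over the 4 libraries, with 7.0% and 9.26% in experiment 1 and 10.1% and 8.90% in experiment 2 (WT, KO).

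Large clones, of 10 or more cells, were found mostly in experiment 2. They held 0.0434% of WT and 0.414% of KO cells in experiment 1, the latter in a single clone of 11 cells. In experiment 2 they held 13.8% of WT cells in an expected 18.8 clones and 7.87% of KO cells in an expected 10.7 clones. KO minus WT was 0.371 points in experiment 1 and -5.92 in experiment 2 (mean -2.77 ± 4.45, SD, n = 2 experiments). As counted before thinning, the WT libraries held 13 and 36 large clones with 179 and 806 cells and the KO libraries 1 and 28 with 11 and 591 cells (experiments 1, 2). With control Ig, large clones held 1.25% and 3.38% in experiment 1 and 1.10% and 1.81% in experiment 2 (WT, KO).

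**Figure D2:**
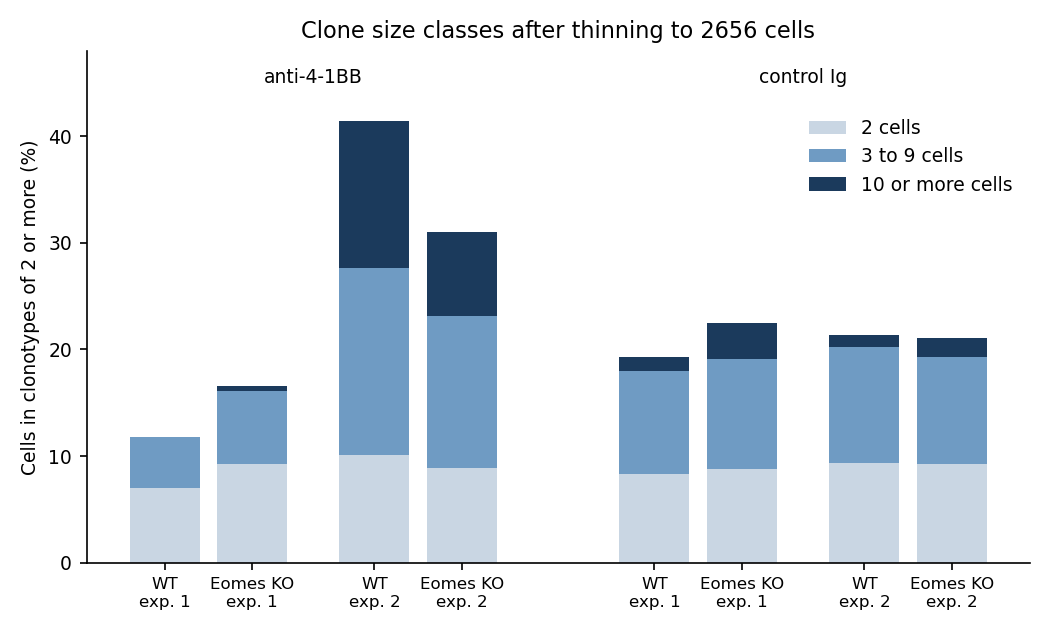
Percent of cells (y axis) in clonotypes of 2, of 3 to 9, and of 10 or more cells, stacked, expected after thinning to 2656 cells, 1 bar per library with anti-4-1BB on the left and control Ig on the right. Among the anti-4-1BB libraries the bars of experiment 2 (41.4% and 31.0% in total) are higher than those of experiment 1 (11.8% and 16.5%).

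The direction in experiment 1 rests on the thinning. Without it the expanded share was 22.2% in WT, from 8871 cells, and 16.5% in KO, from 2656 cells, and KO minus WT turned to -5.63 points, with -2.92 for middle-sized and -1.6 for large clones. At 500 drawn cells the KO library of experiment 1 was already above WT, 5.02% against 3.53%, and in experiment 2 it was below, 16.5% against 24.4%. The order of the genotypes within an experiment was the same at each depth drawn, from 250 to 2656 cells.

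**Figure D3:**
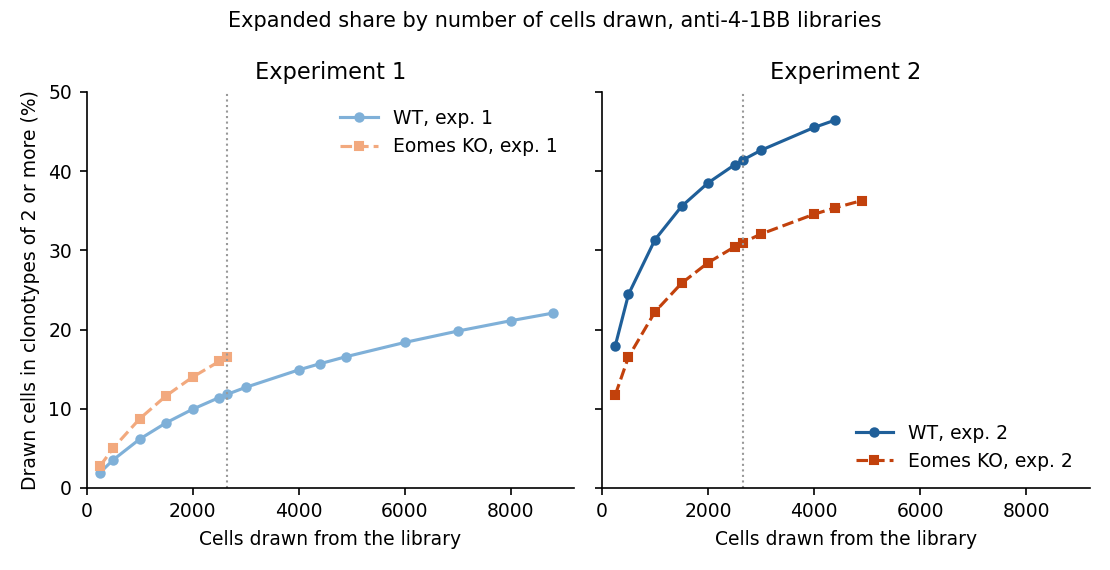
Expanded share (y axis, percent of drawn cells) against the number of cells drawn from each anti-4-1BB library (x axis), WT as solid and KO as dashed lines, 1 panel per experiment, with a dotted line at 2656 cells. KO lies above WT at equal depth in experiment 1 and below it in experiment 2.

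Concentration, the chance that 2 cells of a library share a clonotype, followed the same order. It was 1 in 11926 in WT and 1 in 8257 in KO of experiment 1, and 1 in 708 in WT and 1 in 1043 in KO of experiment 2. On the log2 scale KO minus WT was 0.53 and -0.56 (mean -0.01 ± 0.77, SD, n = 2 experiments). Thinned to 2656 cells, the libraries held 2469 (WT) and 2392 (KO) clonotypes in experiment 1 and 1817 and 2052 in experiment 2. Without the cells of TRBV1, TRBJ2-4 and TRAJ30, the difference in experiment 2 widened to -1.21 on the log2 scale, and with clones defined by residues in place of bases it narrowed to -0.11.

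By rank, the genotypes of experiment 2 parted below the 4 largest clones. The 4 largest clones held 61, 57, 44 and 42 of 4439 cells in WT and 71, 68, 50 and 49 of 4907 in KO. The fifth clone held 39 cells in WT and 24 in KO, and the tenth 31 (0.698%) and 18 (0.367%). Clones of rank 11 to 50 held 11.4% of WT and 7.99% of KO cells, and clones of rank 51 to 200 held 14.5% and 12%. The 10 largest held 9.33% and 7.42%. In experiment 1 the KO library was the higher by rank, with 2.07% against 1.67% for the 10 largest clones and 4.97% against 3.28% for ranks 11 to 50. Shares by rank there also depend on the unequal cell numbers, and were not thinned.

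**Figure D4:**
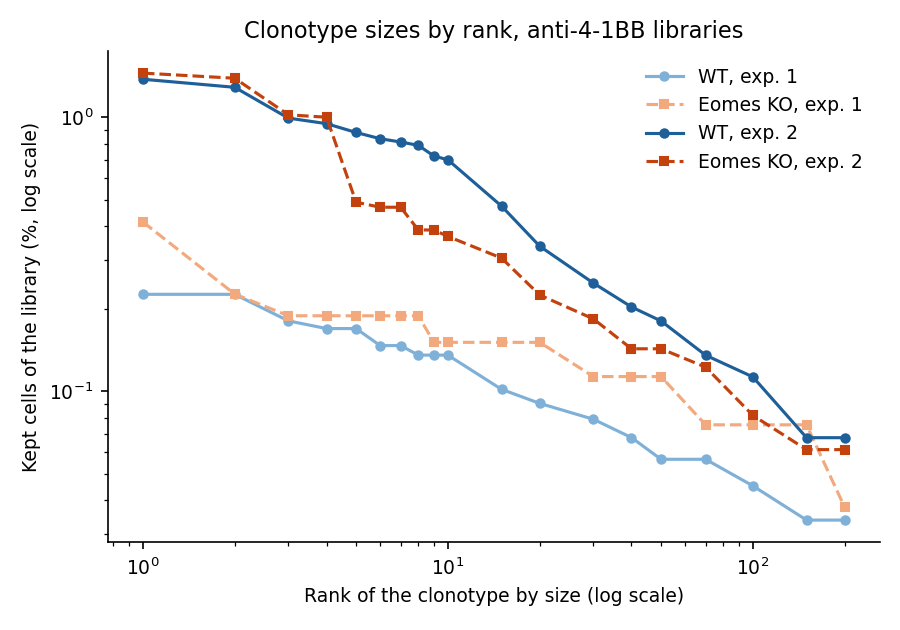
Share of kept cells held by each clonotype (y axis, log scale) against its rank by size (x axis, log scale) in the 4 anti-4-1BB libraries, unthinned. The lines of experiment 2 lie above those of experiment 1 down to rank 100, and in experiment 2 KO lies below WT from the fifth clone down to rank 100.

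The 10 largest clones of each library used 6 to 8 different TRBV and 7 to 9 different TRAV labels. The largest WT clone of experiment 2, 61 cells (1.37%, 1.05% to 1.76%), used TRBV13-1 (Vβ8), TRBJ1-1, TRAV14N-1 and TRAJ4. The fourth, 42 cells, paired TRBV31 (Vβ14) and TRBJ2-4 with the same TRAV14N-1 and TRAJ4. The clones ranked 2 and 3 used TRBV16 (Vβ11) and held 57 and 44 cells. The largest KO clone of experiment 2, 71 cells (1.45%, 1.13% to 1.82%), used TRBV20, TRBJ2-4, TRAV14-2 and TRAJ49. The 2 leading clones of experiment 2 are printed to show that they share neither chain.
WT experiment 2, largest clone, CDR3β: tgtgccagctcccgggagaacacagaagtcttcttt
WT experiment 2, largest clone, CDR3α: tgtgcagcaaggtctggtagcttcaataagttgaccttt
KO experiment 2, largest clone, CDR3β: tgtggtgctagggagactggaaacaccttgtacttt
KO experiment 2, largest clone, CDR3α: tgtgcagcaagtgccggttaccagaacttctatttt
In experiment 1 the largest WT clones held 20 cells each, 1 with TRBV13-1, TRBJ1-1, TRAV7D-2 and TRAJ27 and 1 with TRBV26, TRBJ2-7, TRAV7-3 and TRAJ34. The largest KO clone held 11 cells (0.414%, 0.207% to 0.740%) and used TRBV10, TRBJ1-4, TRAV7D-2 and TRAJ13, and the next held 6. Each of the 4 leading β chains by bases was in 0 cells of every other library. The β residues of the KO clone of 49 cells were also in 14 WT cells of experiment 2, and those of the KO clones of 68 and 50 cells in 3.

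V-J pairing was compared by counting each clonotype once, so that a large clone weighs as much as a single cell. No pair was called: 0 of 239 TRBV-TRBJ and TRAV-TRAJ pairs passed an adjusted p of 0.05 (0%), with 3 at an unadjusted p under 0.05, in edgeR's quasi-likelihood test over all 8 libraries. DESeq2 also called 0, with 1 at an unadjusted p under 0.05. Of 153 single segments 0 were called (0%), with 1 at an unadjusted p under 0.05 (TRAJ5, -1.35 ± 0.45 SE, adjusted p = 0.796); DESeq2 called 0, with 1 unadjusted.

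The pairs nearest to the threshold had few clonotypes. TRAV14N-1 with TRAJ22 was in 0.171% and 0.391% of WT clonotypes (13 and 11) and in 0.0418% and 0.0565% of KO clonotypes (1 and 2; experiments 1, 2), a log2 difference of -2.29 ± 0.92 SE with an edgeR adjusted p of 0.974. The SE and p of TRAV-TRAJ pairs rest on a spread pooled over all such pairs. TRBV13-3 with TRBJ1-5 was in 0.198% and 0.107% of WT and 0.0418% and 0.0283% of KO clonotypes (log2 -2.19 ± 0.83 SE). On the higher side, TRBV1 with TRBJ1-2 was in 0.0923% and 0.0711% of WT and 0.251% and 0.198% of KO clonotypes (1.34 ± 0.57). TRBV20 with TRBJ1-2 was in 0.264% and 0.107% of WT and 0.334% and 0.565% of KO clonotypes (1.15 ± 0.58). The pairs with the most clonotypes among these were TRBV3 with TRBJ2-3, at 1.13% and 0.925% in WT and 0.627% and 0.622% in KO (-0.73 ± 0.38), and the joined label TRBV12-2+TRBV13-2 with TRBJ1-6, at 0.382% and 0.462% of WT against 0.460% and 1.22% of KO clonotypes (1.05 ± 0.53). The last rested on KO of experiment 2: without that library its log2 difference was 0.16, and without KO of experiment 1 it was 1.55 (edgeR adjusted p = 0.10). The other 4 pairs of the 5 smallest p-values in each direction were TRBV14 with TRBJ2-3 (-1.47), TRBV31 with TRBJ1-3 (-0.97), TRBV10 with TRBJ1-3 (1.04) and TRAV3N-3 with TRAJ23 (1.35), all with an edgeR adjusted p of 0.974. TRBV10 with TRBJ1-3 was in 0.185% and 0.178% of WT and 0.251% and 0.480% of KO clonotypes, and had 0.45 without KO of experiment 2. TRAV3N-3 with TRAJ23 was in 0.132% and 0.0356% of WT and 0.293% and 0.226% of KO clonotypes, and had 2.72 without WT of experiment 1 and 0.94 without WT of experiment 2. TRBV20 with TRBJ1-2 had 2.08 without WT of experiment 1 and 0.66 without KO of experiment 2. TRBV13-3 with TRBJ1-5 had -1.55 without WT of experiment 1, and TRBV14 with TRBJ2-3 had -2.09 without KO of experiment 2.

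Leaving out 1 library gave the sole call. Without the KO library of experiment 1, TRBV12-1 with TRBJ2-4 was called lower in KO (log2 -4.51, edgeR adjusted p = 0.000813), in a fit whose lone KO library is assumed to vary like the other groups. With all libraries it had 0.08 (adjusted p = 0.992). The pair was in 86 WT and 36 KO clonotypes of experiment 1 and in 2 and 1 of experiment 2, so it differed by experiment in both genotypes.

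TRBV12-1, a Vβ5 segment, made up 503 clonotypes (6.63%) in WT and 200 (8.36%) in KO of experiment 1. In experiment 2 it made up 26 (0.925%) and 23 (0.650%). With control Ig its shares were 1.84% and 0.910% in experiment 1 and 1.15% and 1.05% in experiment 2 (WT, KO). Most TRBV12-1 clonotypes were single cells. Of them 97% in WT and 97% in KO of experiment 1 had 1 cell, against 91.0% and 92.7% of all clonotypes of those libraries, and the largest held 3 cells. They used 66 TRAV and 42 TRAJ labels in WT and 54 and 41 in KO, and 481 and 199 distinct CDR3β residue sequences. Among cells of clones of 3 or more after thinning, TRBV12-1 and TRBV12-2 together held 0.934% in WT and 9.33% in KO of experiment 1. In experiment 2 they held 0.155% and 2.26%. With control Ig they held 3.71% and 8.54% in experiment 1 and 1.94% and 0.752% in experiment 2. Few clones lie behind these shares. In KO of experiment 1 they were 3 of TRBV12-1 and 3 of TRBV12-2, and in WT an expected 0.0268 and 0.355. In KO of experiment 2, TRBV12-2 held 2.18% in an expected 1.74 clones, with a largest clone of 19 cells before thinning. TRBJ2-4 was joined to 17.1% of WT and 18.0% of KO TRBV12-1 clonotypes of experiment 1, against 10.9% and 11.7% of all clonotypes. In experiment 2 it was joined to fewer, 7.69% in WT and 4.35% in KO, against 10.7% and 11.6% of all clonotypes. With control Ig its share of TRBV12-1 clonotypes ran from 0% in KO to 17.5% in WT, both of experiment 1. Leaving out TRBV12-1 and TRBV12-2 and thinning to 2331 cells left the expanded share at 12.2% in WT and 17.6% in KO of experiment 1. Vβ5 is among the Vβ chains that endogenous superantigens are known to delete in some mouse strains. In a list of 5 such segments (TRBV12-1, TRBV12-2, TRBV15, TRBV16 and TRBV26), 0 of 5 passed for KO against WT. Of the 5, 4 had values above 0, as did 73 of all 153 segments. Their median log2 difference was 0.13, against -0.01 over all 153 segments. The experiments went opposite ways: the list held 22.3% of WT and 28.4% of KO clonotypes in experiment 1, and 18.5% and 16.9% in experiment 2. The Vβ8 list (4 labels; median 0.06), the TRBJ1 list (6; -0.02), the TRBJ2 list (6; 0.03), TRAJ segments above 30 (22; 0.02) and TRAJ segments of 30 or below (21; -0.04) had 0 called as well.

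Weighted by cells in clones of 3 or more after thinning, 2 J lists were lower in KO in both experiments. TRBJ1 segments held 47.5% of such cells in WT and 33.2% in KO of experiment 1, and 26.6% and 22.1% in experiment 2. TRAJ segments above 30 held 56.3% and 40.4% in experiment 1 and 47.1% and 37.7% in experiment 2 (KO minus WT -15.9 and -9.44 points, mean -12.7 ± 4.58, SD, n = 2 experiments). With control Ig the TRAJ difference was 0.0637 and 4.93 points and that of TRBJ1 -2.09 and -2.45. Without the TRBV1, TRBJ2-4 and TRAJ30 cells, thinned to 2652, the experiment 2 values drew together, at 51.6% in WT and 49.7% in KO for TRAJ above 30 and at 29.2% in both for TRBJ1. The experiment 1 values were 56.3% and 40.4% for TRAJ above 30 without those cells. An expected 34.0 WT and 52 KO clones lay behind the experiment 1 shares. Counted by clonotype, KO minus WT had opposite signs in experiments 1 and 2. It was 1.31 and -1.34 points for TRAJ above 30 and -2.16 and 0.577 points for TRBJ1. The 2 lists were picked out by these values, and the differences were not tested.

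The CDR3s of all clonotypes were of nearly the same length in both genotypes. CDR3β averaged 13.75 residues in WT and 13.76 in KO of experiment 1 and 13.71 and 13.68 in experiment 2 (SD over clonotypes 1.34 to 1.38). The KO minus WT mean was -0.0105 ± 0.0345 residues (SD, n = 2 experiments). CDR3α averaged 13.46 and 13.49 in experiment 1 and 13.38 and 13.29 in experiment 2. Net charge of the central CDR3β, the residues left after 4 at each end are removed, was -0.416 and -0.362 in experiment 1 and -0.500 and -0.520 in experiment 2 (WT, KO). Its hydropathy on the Kyte-Doolittle scale differed by 0.0320 and -0.00368. A TRBD1 label was on 14.4% and 13.5% of WT and 13.4% and 12.5% of KO clonotypes (experiments 1, 2), while 78.2% to 79.7% carried no D label. With control Ig the TRBD1 differences were -0.618 and 0.759 points.

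Among expanded clones the CDR3β was shorter in KO than in WT of experiment 2, 13.48 against 13.83 residues, and differed less in experiment 1, 13.70 against 13.74. KO minus WT was -0.352 and -0.0430 residues (mean -0.198 ± 0.219, SD, n = 2 experiments). With control Ig it was -0.116 and 0.0100.

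Glycine, the residue without a side chain, was more frequent in the central CDR3β of KO clones of 3 or more cells in both experiments. It made up 20.4% of central residues in WT and 26.4% in KO of experiment 1 (SD over clonotypes 16.2 and 15.7, an expected 34.0 and 52 clonotypes). In experiment 2 it made up 17.6% and 20.4% (SD 14.5 and 15, 126.6 and 100.6 clonotypes). KO minus WT was 5.95 and 2.85 points, a mean of 4.40 ± 2.19 (SD, n = 2 experiments), against 0.618 and 0.410 points over all clonotypes. With control Ig it was 0.611 and 0.532 points. Without the TRBV1, TRBJ2-4 and TRAJ30 cells it was 5.95 and 3.54. Central charge of these clones (KO minus WT 0.0458 and 0.0651) also went 1 way in both experiments. So did central aromatic content (-0.858 and -1.34 points) and CDR3α length (-0.125 and -0.0997 residues). CDR3β length (0.156 and -0.349 residues) and central hydropathy (-0.144 and 0.0105) did not. Glycine was added to the features after the files were seen, each clone weighs the same here, and these differences were not tested.

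**Figure D5:**
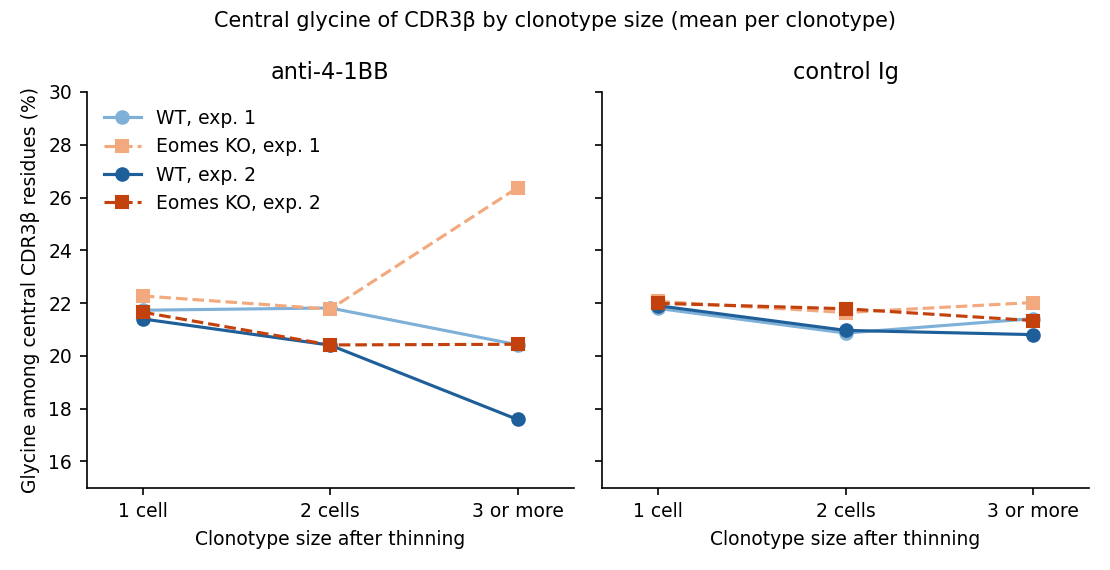
Mean percent of glycine among central CDR3β residues (y axis, from 15%) of clonotypes of 1, of 2 and of 3 or more cells after thinning (x axis), 1 line per library, WT solid and KO dashed, with anti-4-1BB on the left and control Ig on the right. At 3 or more cells KO lies above WT in both experiments with anti-4-1BB (26.4% against 20.4% and 20.4% against 17.6%).

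Inside each library, expanded clonotypes were set against single ones over all 8 libraries, and no feature passed. Central charge was higher in expanded clonotypes in 7 of 8 libraries (mean 0.0254 ± 0.0355, SD, n = 8; two-sided exact permutation test that flips the sign of each library's difference, p = 0.0625, adjusted over 6 features p = 0.152). Central glycine was lower in 7 of 8 (-0.672 ± 0.928 points, exact permutation p = 0.0703, adjusted 0.152), with anti-4-1BB-treated KO of experiment 1 as the exception at 0.866. CDR3α was shorter among expanded clonotypes in 6 of 8 libraries (-0.0502 ± 0.0686 residues, exact permutation p = 0.102, adjusted 0.152) and in 4 of the 4 anti-4-1BB libraries. CDR3β length had -0.00798 ± 0.101 (exact permutation p = 0.891, adjusted 1).

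With anti-4-1BB, CDR3β were shared more between WT and KO of 1 experiment than between libraries of different experiments. With both libraries thinned to 2656 cells, WT and KO of experiment 1 were expected to share 12.3 CDR3β by bases and 39.0 by residues. For WT and KO of experiment 2 the numbers were 11.9 and 26.0. Pairs of libraries from different experiments shared 3.83 to 8.29 by bases and 20.7 to 24.1 by residues. Clonotypes with both chains identical in bases were few: 3 between WT and KO of experiment 1 and 2 between WT and KO of experiment 2 before thinning, and 0 or 1 in the 4 other pairings. With control Ig, WT and KO were expected to share 9.46 CDR3β by bases in experiment 1 and 13.2 in experiment 2, thinned alike. Pairs of control Ig libraries from different experiments shared 4.25 to 10.5, the latter between the KO libraries. These sharings were not tested, since each library enters 3 of the 6 pairings of its treatment.

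Convergence, 1 CDR3β residue sequence made by at least 2 base sequences in the same library, had no common direction. Thinned to 2656 cells, it was expected for 1.13% of the distinct CDR3β residue sequences in WT and 0.817% in KO of experiment 1, and for 1.16% and 1.37% in experiment 2. The most base sequences for 1 residue sequence were 13, in KO of experiment 2, and 8, 5 and 7 in WT of experiment 1, KO of experiment 1 and WT of experiment 2.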

How the data were processed

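The deposited contig annotations list assembled TCR chains with UMI counts per cell barcode, in whole counts that were not normalized, per the file headers. Per the submitters' processing notes, Cell Ranger 7.1.0, bcl2fastq 2.20.0, Seurat and build GRCm38 were used in the study. The V(D)J reference is not given in the sources used here. Groups came from the labels, and the labels' batch (ASD1 or ASD2) pairs WT with KO as experiment 1 or 2. Deviations of WT and KO anti-4-1BB libraries from their group means had a Pearson correlation of 0.680 over 62 TRBV and TRAJ segments. Segments are not independent replicates. For the WT and KO control Ig libraries the correlation was 0.186, and for the other pairs of groups it ran from -0.276 to 0.295.

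A barcode was kept with exactly 1 TRB and 1 or 2 TRA chains, that is 20873 of 40288 barcodes of the 4 anti-4-1BB libraries (51.8%). Barcodes with a TRB and no TRA, 25.9% to 46.8%, were the main loss. The 4 files held 100044 to 445027 UMIs over all their chains, kept or not, and the number of kept cells limits precision. Doublets that show 1 TRB stay in, and no doublet caller was run. A clonotype is the same TRB and main TRA (the one with most UMIs) by V, J and CDR3 bases within a library. Size classes, clonotype numbers and shared receptors were exact hypergeometric expectations at 2656 cells. Concentration was Simpson's index over pairs of cells.

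Clonotypes per segment and V-J pair were fitted in all 8 libraries with edgeR 4.0.16 (R 4.3.3), a quasi-likelihood test with 4 group means, library sizes set to the clonotype total of each segment type and Benjamini-Hochberg adjustment, for features with at least 10 clonotypes in at least 2 libraries. The named pairs are the 5 smallest p-values in each direction, and the named clones come from the 10 largest of each library. DESeq2 1.42.0 was an alternative. Of the steps, the edgeR fit alone was run on simulated counts, with the same spread for all features and no experiment effect. That run does not give the power for these libraries. All other steps used scipy 1.17.1, pandas 2.3.3 and numpy 2.4.6 under Python 3.11.15. Members, lists and tests were chosen with earlier results of these data known. Recurrent receptors, glycine and aromatic content were added after seeing the data. Non-templated CDR3 bases were not computed here, and CDR3 residues are not printed.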

Additional observations from a re-analysis of the deposited data

How the results depend on the processing

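Over 11 settings, KO minus WT in expanded share was positive in experiment 1 in 10 and negative in experiment 2 in 11 (-12.6 to -9.54 points). The settings were the main one, clones by β chain or by residues, exactly 1 TRA, 2-TRB barcodes kept, 3 or more UMIs, 1328 cells, no thinning and 3 chosen after seeing the data: no TRBV1, TRBJ2-4 and TRAJ30 cells, no TRBV12-1 or TRBV12-2 cells, and the joined label as TRBV13-2. The middle-sized (-4.25 to -2.71 in experiment 2) and large shares (-8.16 to -3.86) had the same signs, with no thinning as the exception. Expected clonotypes averaged -2233 without thinning, against 78.8, because WT of experiment 1 then enters with all its cells. With the experiment as replicate block, 0 segments (1 unadjusted) and 0 V-J pairs (3 unadjusted) were called. The block is 1 term shared by both treatments. It does not take up differences between experiments that occur with anti-4-1BB alone, and a pairing within that treatment was not fitted. Without 1 library in turn, 0 segments and 0 to 1 pairs were called. DESeq2, TMM factors, no filter, counts of cells and the 4 anti-4-1BB libraries alone gave 0 for both. Weighting by cells moved CDR3β length to -0.0450 (main -0.0105), central glycine to 1.02 points (0.514) and TRBD1 to -0.893 points (-0.980). TRBD1 was -1.03 with 3 or more UMIs and -0.953 without TRBV1, TRBJ2-4 and TRAJ30 cells. Expanded minus single CDR3β length changed sign to 0.0104 at observed sizes, and without 1 library ran from -0.0270 to 0.0210. Central hydropathy (main 3.38e-05) ran from -0.0120 to 0.0106 without 1 library. The cause was not tested for the CDR3 values. The means over both experiments changed sign where experiment 2 was left out, to 4.70 points for the expanded, 2.08 for the middle-sized and 0.371 for the large share, -77.0 expected clonotypes and 0.53 for log2 concentration. The last, -0.01, also turned to 0.12 with residues, 0.03 with 2-TRB barcodes kept, 0.00014 with exactly 1 TRA and 0.02 without TRBV12-1 and TRBV12-2 cells. Central aromatic content (0.206 points) turned to -0.179 by cells, and the CDR3 lengths, charge, hydropathy and aromatic content of all clonotypes changed sign without 1 of the experiments. These changes lay within 1 SD of the 2 experiments' differences. With 2 experiments, leaving 1 out always stays within that SD, whatever the values. For those changes it therefore says nothing about stability, and the sign changes show that the experiments differed in direction. The named pairs kept their sign in every setting they were fitted in. They were picked by p-value from these same data and the settings overlap, so a kept sign says little about stability. Some fits were also missing. TRAV14N-1 with TRAJ22 had none when treated WT mice of experiment 1, or those of experiment 2, were left out. TRBV14 with TRBJ2-3 had none when those of experiment 1 were.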

Other observations

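Cells with 2 TRA chains were less frequent in large than in single clonotypes in all 4 anti-4-1BB libraries, by observed size. In WT of experiment 1 they made up 9.25% of cells in single clonotypes, 7.84% in clones of 3 to 9 and 2.79% in clones of 10 or more cells. In WT of experiment 2 the shares were 4.51%, 4.60% and 2.85%. In KO of experiment 1 they were 6.95%, 2.75% and 0 of the 11 cells of its 1 large clone, and in KO of experiment 2 4.29%, 3.59% and 2.71%. With control Ig, the shares in single and large clonotypes were 5.21% and 7.77% in WT and 5.88% and 1.01% in KO of experiment 1. In experiment 2 they were 5.52% and 4.69% in WT and 6.13% and 2.79% in KO. A clonotype is set by the TRA with most UMIs, so cells of a clone in which its other TRA leads count as another clonotype. How far this lowers the share in large clonotypes was not tested. Cells of 1 clone share their rearrangements, so these are descriptions without a test.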
